A study of Mus musculus with 2 samples.

Results

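Type I interferon-stimulated genes, the genes that cells switch on when interferon alpha or beta reaches their receptor, were followed in T cells of the mouse spleen after an injection of remimazolam, a short-acting benzodiazepine anaesthetic that acts on GABA A receptors. The set was a list of 49 gene names, chosen with earlier results of these data known. Of these, 48 had a row among the 19837 genes of the molecule table. Mx2, listed as a polymorphic pseudogene in the annotation, had none. Of the 48 genes, 46 reached 200 molecules summed over T cells of all 3 pools and could be compared between pools, and Ifi44 and Ifi204 fell under that minimum.

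Spleen cells came from female C57/BL6N mice in 3 pools of 3 mice each. The first pool received saline and is labelled 0 h, the second received remimazolam at 6 mg/kg and was taken at 4 h, and the third received the same dose and was taken at 8 h. The labels describe the sort in one place as CD45+CD3+CD5+ cells and in another as CD45+ cells. The pools carried different sample tags and were captured together on 1 BD Rhapsody cartridge, so there was 1 pool for each treatment and no replicate. The difference between pools therefore has no replicate check, and saline at 0 h gives no saline animal at the later times.

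Interferon alpha and beta bind a receptor made of IFNAR1 and IFNAR2, whose kinases JAK1 and TYK2 start the signal. A transcription factor complex that holds STAT2 and IRF9 then enters the nucleus and binds the interferon-stimulated response element, a repeat of GAAA letters in the promoters of its target genes. The products block viral RNA, viral protein synthesis and budding, sense foreign nucleic acid or, like USP18 and the SOCS proteins, turn the pathway down again. T cells express part of this set in the resting spleen, where a low tonic level of interferon is known to act.

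The promoter sequences below are shown because they carry the interferon-stimulated response element in 5 genes that were past 1.2-fold at 4 h, all but Isg15 packed into few cells. They are the 150 bases from 200 to 51 bases before the annotated start, taken from RefSeq on GRCm38.p6 and written 5′ to 3′ in the direction of transcription, with matches to the element on either strand in capitals. The element was searched as GAAA, any 2 bases and GAAA again.
Rsad2 (chr12:26456503-26456652, minus strand): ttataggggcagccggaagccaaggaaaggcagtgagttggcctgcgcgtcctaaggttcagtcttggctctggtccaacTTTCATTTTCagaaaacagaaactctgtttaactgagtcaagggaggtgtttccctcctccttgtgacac
Ifit3b (chr19:34607757-34607906, plus strand): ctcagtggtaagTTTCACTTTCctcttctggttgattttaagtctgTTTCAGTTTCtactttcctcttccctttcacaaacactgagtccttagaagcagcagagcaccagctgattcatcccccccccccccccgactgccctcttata
Ifit3 (chr19:34583329-34583478, plus strand): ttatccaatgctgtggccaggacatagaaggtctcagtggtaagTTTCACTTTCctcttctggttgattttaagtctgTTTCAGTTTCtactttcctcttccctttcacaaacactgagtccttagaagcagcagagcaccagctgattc
Ifit1 (chr19:34640689-34640838, plus strand): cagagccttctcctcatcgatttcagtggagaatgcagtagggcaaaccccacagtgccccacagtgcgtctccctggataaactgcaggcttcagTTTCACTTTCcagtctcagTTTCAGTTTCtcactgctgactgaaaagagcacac
Isg15 (chr4:156200869-156201018, minus strand): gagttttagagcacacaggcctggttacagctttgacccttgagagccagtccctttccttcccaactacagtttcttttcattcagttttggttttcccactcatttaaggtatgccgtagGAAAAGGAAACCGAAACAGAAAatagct
Within these stretches the single match of Rsad2 began 120 bases before the start, those of Ifit3b 188 and 154, those of Ifit3 156 and 122, those of Ifit1 104 and 85, and the 3 overlapping matches of Isg15 78, 72 and 66 bases before it. The windows of Ifit3b and Ifit3 share an identical run of 169 of 300 bases, and reads from these near-identical genes may have been split between them. The window from 250 bases before to 50 after the start held the motif in 20 of the 38 members that have a RefSeq window, against 3.99% of 27025 genes. By the spread over cells described below, it was in 5 of 8 concentrated members and in 15 of 28 of those between. Isg20, Irf7, Oasl1, Oasl2 and Cmpk2 were also past 1.2-fold at 4 h and had a window without a match. Oas1a, past 1.2-fold at 4 h too, had matches 20 and 14 bases before the start, nearer to it than the stretches shown. Usp18, Mx1 and Rtp4, also past 1.2-fold at 4 h, had no RefSeq window. The 5 sequences shown were picked for having a match, and a link between motif, ratio and spread was not tested. The other interferon motif searched, the gamma-activated site TTCNNNGAA, was in 6 of the 38 members, against 9.55% of genes, and matches to the 2 motifs were counted separately even where they overlap. A match describes the letters and is not evidence of a bound factor.

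The 4 IFIT genes lie together on the plus strand of chromosome 19 on GRCm38: Ifit2 at chr19:34550694-34576419, Ifit3 at chr19:34583531-34588731, Ifit3b at chr19:34607970-34613401 and Ifit1 at chr19:34640871-34650009. Rsad2 at chr12:26442746-26456452 and Cmpk2 at chr12:26469204-26479837 are neighbours on opposite strands of chromosome 12. Usp18 lies at chr6:121245906-121270917 on the plus strand, and Isg15 at chr4:156199424-156200818 on the minus strand. All 8 are annotated as protein-coding.

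After filters and a gate on CD3 molecules, the saline pool held 4983 T cells, the 4 h pool 5098 and the 8 h pool 5091, with a median of 2548, 2528.5 and 2530 molecules per cell in that order of time. T cells were 94.6%, 93.8% and 93.9% of the cells kept at saline, 4 h and 8 h, and 0 cell barcodes were shared between pools. All intervals below are 95% intervals of the molecule counts or cell counts and cover counting error only, not the difference between mice. Intervals of molecule counts take each molecule as an independent draw, so they are too narrow for genes packed into few cells. A level is molecules per 1000000 molecules of the cells named (CPM), with 1 molecule per captured transcript whatever the length of the gene. In the gated T cells the 6 B cell markers summed to 16, 16.4 and 13.7 CPM at saline, 4 h and 8 h, and the 5 myeloid markers to 14.5, 18.6 and 15.4 CPM. The 4 NK markers, which some T cells express, summed to 91.2, 98.5 and 102 CPM, with Klrb1c at 7.47, 14.8 and 9.99 CPM and Gzma at 9.97, 11.2 and 22.2 CPM. Double-negative cells with Trdc, Klrb1c or Zbtb16 were 2.25%, 3.53% and 2.53% of T cells. With the subset mix held at that of saline 10 members were past 1.2-fold at 4 h and 7 at 8 h. The share of all genes under that weighting is not given, so these 2 counts stand without a background. Markers of plasmacytoid dendritic cells, the professional producers of type I interferon, summed to 121 CPM at saline, 150 CPM at 4 h and 121 CPM at 8 h, most of it from Ccr9 and Tcf4, which T cells also express. The defining marker Siglech had 0, 35 and 1 molecules, and cells with Siglech or the other dendritic marker Cox6a2 numbered 2, 3 and 2 at saline, 4 h and 8 h, 0 of them with an Ifit1 or Ifit3 molecule. They held at most 0.0745% of the molecules of the members in any pool, and the counts of members past 1.2-fold, 14 at 4 h and 7 at 8 h, were as large without them. This covers only the molecules that these cells held. Whether interferon made by such cells reached the T cells was not tested.

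At 4 h the interferon-stimulated genes were shifted upwards. Of the 46 members compared, 14 were more than 1.2-fold higher than in saline and 0 were lower by that factor, while 5.44% of 9123 genes were higher and 2.36% lower by the same rule. The median log2 ratio of the members was 0.14, against 0.01 over all genes, and 41 of the 46 ratios were above 1. Since the list was chosen with earlier results of these data known, setting it against all genes is a description. The shift was largest in genes with few molecules. Members with at least 200 and under 1000 molecules passed 1.2-fold in 9 of 11 cases, against 12.6% of genes at that level, and members with 1000 or more in 5 of 35 cases, against 1.35%, in level classes chosen after the data were seen. The intervals of 12 of the 14 higher members excluded 1 and those of Oasl1 and Oas1a did not, without allowance for molecules packed into the same cells. Irf7 at 1.2 and Ddx60 at 1.17 lay just inside and just outside the 1.2-fold line. The count of 14 depends on the gate: over all kept cells, T cells or not, it was 8, against 6.3% of genes.

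At 8 h the shift was smaller. More than 1.2-fold higher than saline were 7 of the 46 members and 0 were lower, against 3.85% of genes higher and 3.15% lower. The median log2 ratio was 0.08, against -0.0019 over all genes, and 37 of the 46 ratios were above 1. The 7 members were Usp18, Rsad2, Mx1, Oas1a, Dhx58, Oas2 and Cmpk2, and the intervals of Usp18, Cmpk2 and Dhx58 excluded 1. Among members with under 1000 molecules 7 of 11 were past 1.2-fold, against 9.72% of genes, and among those with 1000 or more 0 of 35, against 0.483%. Set against 4 h directly, 11 of the 46 members were higher at 8 h, and the median log2 ratio was -0.07. Both comparisons use the same saline pool, so they are not independent of each other.

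**Figure D1:**
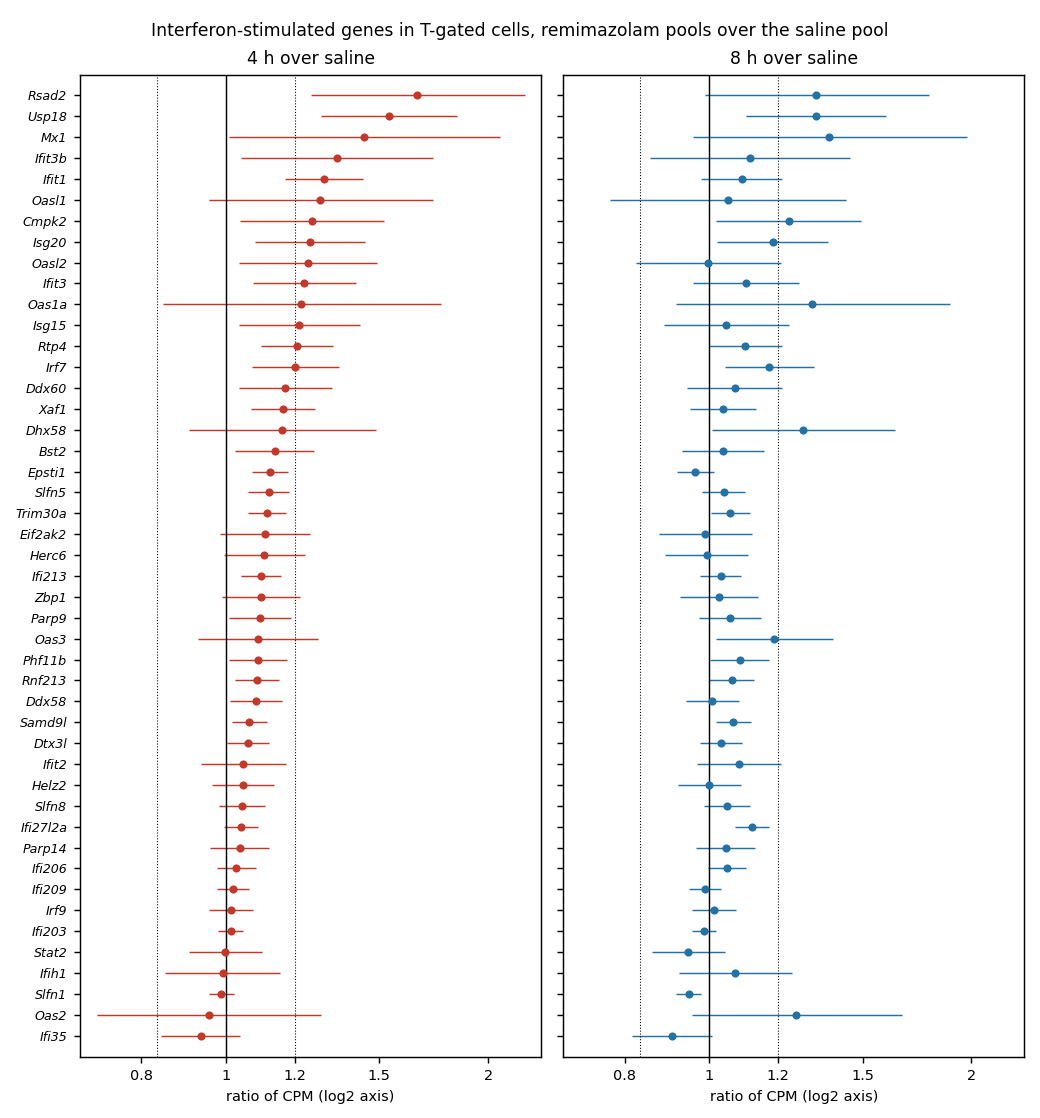
Ratio of the level in T cells at 4 h and at 8 h over the level in saline T cells for the 46 members with at least 200 molecules, on a log axis, with 95% intervals that cover counting error only. At 4 h 41 of the 46 ratios were above 1, and Rsad2 (1.66) and Usp18 (1.54) were highest, whereas at 8 h 37 were above 1 and Mx1 (1.37) was highest.

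Among the transcription factors, Irf7, which amplifies interferon production and is itself induced by interferon, had 535 molecules in saline, 658 at 4 h and 640 at 8 h. Its ratio to saline was 1.2 at 4 h (1.07 to 1.35) and 1.17 at 8 h (1.04 to 1.32). Stat2 and Irf9, whose products carry the signal to the nucleus, had ratios of 0.999 (0.907 to 1.10) and 1.01 (0.957 to 1.08) at 4 h. Both intervals include 1.

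The ISG15 system attaches the ubiquitin-like protein ISG15 to other proteins and removes it again. Usp18, which removes ISG15 and also blocks signalling at IFNAR2, had 204 molecules in saline, 321 at 4 h and 276 at 8 h. Its ratio to saline was 1.54 at 4 h (1.29 to 1.84), below Rsad2 alone among the 46 members, and 1.33 at 8 h (1.10 to 1.60). Isg15 had 284, 353 and 303 molecules at saline, 4 h and 8 h, with ratios of 1.21 (1.04 to 1.42) and 1.05 (0.887 to 1.23). Summed over Isg15, Usp18 and the ISG15 ligase gene Herc6, the ratio was 1.21 at 4 h (1.12 to 1.31) and 1.07 at 8 h (0.983 to 1.16).

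The IFIT proteins bind viral RNA that lacks the host cap and hinder its translation. Ifit1 had 665 molecules in saline, 882 at 4 h and 739 at 8 h, with ratios of 1.30 at 4 h (1.17 to 1.43) and 1.09 at 8 h (0.980 to 1.21). Ifit3 had 386, 486 and 434 molecules in the same order, a ratio of 1.23 at 4 h (1.07 to 1.41) and 1.10 at 8 h (0.959 to 1.27). Both were highest at 4 h, with 8 h between saline and 4 h. The near-copy Ifit3b had 110, 151 and 125 molecules and ratios of 1.34 (1.04 to 1.73) and 1.11 (0.855 to 1.45), with the limit on split reads given above. Ifit2 was nearer to saline at 4 h than its neighbours, with 611, 655 and 675 molecules and ratios of 1.05 (0.936 to 1.17) and 1.08 (0.969 to 1.21). Its interval at 4 h overlapped those of Ifit3 and Ifit3b.

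The OAS enzymes make the second messenger that activates RNase L, and OASL proteins are relatives of which some lack that activity. Oasl2 had 218 molecules in saline, 277 at 4 h and 222 at 8 h, a ratio of 1.24 at 4 h (1.04 to 1.49) and 0.998 at 8 h (0.824 to 1.21). The 5 genes of the family gave summed ratios of 1.15 at 4 h (1.04 to 1.27) and 1.14 at 8 h (1.03 to 1.25), and since they are related copies their counts may be shared in part. Oas2 had 95 molecules in saline, 93 at 4 h and 122 at 8 h. Its ratio of 0.956 at 4 h had an interval of 0.711 to 1.29, which includes the summed ratio of the family.

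Of the other antiviral effectors 4 of 6 were past 1.2-fold at 4 h. Rsad2, which encodes viperin, an enzyme that makes a chain-terminating nucleotide, had 82 molecules in saline, 139 at 4 h and 111 at 8 h, with ratios of 1.66 (1.25 to 2.20) and 1.33 (0.989 to 1.79). Its neighbour Cmpk2, a mitochondrial nucleotide kinase, had 197, 253 and 248 molecules and ratios of 1.25 (1.04 to 1.52) and 1.23 (1.02 to 1.5). Mx1, a GTPase that acts on viral nucleoproteins, had 55, 81 and 77 molecules and ratios of 1.44 (1.01 to 2.06) and 1.37 (0.958 to 1.98). These small counts leave wide intervals. Isg20, an exonuclease gene, had 339, 433 and 409 molecules and ratios of 1.25 (1.08 to 1.44) and 1.18 (1.02 to 1.37). Bst2, whose product tetherin holds budding virus on the cell surface, and Eif2ak2, which encodes the kinase PKR, had ratios of 1.14 (1.02 to 1.26) and 1.11 (0.983 to 1.25) at 4 h and stayed within 1.2-fold.

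Among the nucleic acid sensors 0 of 5 passed 1.2-fold at 4 h and 1 did at 8 h. This was Dhx58, a regulator of the RIG-I family, with 123 molecules in saline, 146 at 4 h and 161 at 8 h and ratios of 1.16 (0.906 to 1.49) and 1.28 (1.01 to 1.64). Ddx58, which encodes RIG-I, had 1551, 1718 and 1596 molecules and ratios of 1.08 (1.01 to 1.16) and 1.01 (0.940 to 1.08). Ifih1, which encodes MDA5, had ratios of 0.991 at 4 h (0.851 to 1.15) and 1.07 at 8 h (0.923 to 1.24). The summed ratio of the 5 sensors was 1.09 at 4 h (1.04 to 1.15) and 1.04 at 8 h (0.990 to 1.09).

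The members with the most molecules moved little. Ifi203, a DNA-binding protein gene of the interferon-inducible Ifi200 family, had 7524 molecules in saline, 7797 at 4 h and 7570 at 8 h, and its ratios were 1.01 (0.981 to 1.04) and 0.986 (0.955 to 1.02). Slfn1, a Schlafen gene that restrains T cell growth in mouse, had 6925, 7003 and 6692 molecules, and at 8 h its ratio of 0.947 (0.916 to 0.980) lay below 1. Ifi209 and Ifi206, also of the Ifi200 family, had 4407, 4597 and 4451 molecules and 2929, 3082 and 3135 molecules in the same order. None of these 4 genes was past 1.2-fold in either comparison. The 4 compared members of the Ifi200 family, whose copies may share reads, had a summed ratio of 1.03 at 4 h (1.01 to 1.05) and 1.00 at 8 h (0.983 to 1.03), and the 3 Schlafen genes had 1.03 (1.00 to 1.05) and 0.985 (0.960 to 1.01).

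Of the remaining well-measured members, Ifi27l2a, an interferon-inducible gene of the mitochondrial ISG12 family, was highest at 8 h. It had 3709 molecules in saline, 3949 at 4 h and 4240 at 8 h, with ratios of 1.04 at 4 h (0.994 to 1.09) and 1.12 at 8 h (1.07 to 1.17). Epsti1 had 3224, 3707 and 3171 molecules and ratios of 1.12 (1.07 to 1.18) and 0.964 (0.918 to 1.01), so that 4 h stood above both other pools. Trim30a, a ubiquitin ligase gene, had 2922, 3333 and 3153 molecules and ratios of 1.11 (1.06 to 1.17) and 1.06 (1.01 to 1.11). Samd9l, an antiviral and growth-restraining gene, had 3496, 3806 and 3799 molecules and ratios of 1.06 (1.02 to 1.11) and 1.07 (1.02 to 1.12). All 4 stayed within 1.2-fold of saline at both times. Rtp4, an interferon-induced chaperone gene, had 798, 986 and 896 molecules and was the only one past 1.2-fold among the 8 compared members outside the families above, at 1.21 at 4 h (1.10 to 1.33) and 1.10 at 8 h (0.999 to 1.21). Ifi35 was lowest at both times, at 0.936 (0.843 to 1.04) and 0.907 (0.816 to 1.01), with intervals that include 1. The 5 PARP and ubiquitin ligase genes had 0 past 1.2-fold at either time and summed ratios of 1.08 (1.05 to 1.11) and 1.05 (1.02 to 1.08). Parp9 and Dtx3l overlap at their 5′ ends on opposite strands, and whether strand was used in counting is not stated.

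The members differed widely in how their molecules were spread over cells. Ifi203 was found in 65.9% of the 15172 T cells, Slfn1 in 61.0%, Ifi209 in 49.6% and Samd9l in 44.2%, whereas Ifit1 was found in 7.75%, Ifit3 in 5.21%, Ifit3b in 1.78% and Rsad2 in 1.36%. For each gene the observed share of cells with a molecule was divided by the share that would result if its molecules fell on cells in proportion to their depth. That quotient was under 0.8 in 9 of the 46 members, against 3.54% of all genes, and these 9 are called concentrated below. Ifit1 was lowest at 0.561, followed by Rsad2 at 0.632, Ifit3 at 0.637, Ifit3b at 0.710, Ifi27l2a at 0.730 and Slfn5 at 0.746, and Oasl2, Cmpk2 and Epsti1 completed the group. At the other end, Ifi35 at 0.952 was the single member spread almost evenly, and the remaining 36 lay between 0.8 and 0.95. Few molecules per gene limit the quotient: when each cell was thinned to 1000 molecules, only 1 member was under 0.8.

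Ifit1 shows the pattern in numbers of cells. Its 2286 molecules came from 1176 cells, 1.94 per positive cell and up to 15 in 1 cell, where 13.8% of cells would have been positive with even spread. The 1% of cells with most Ifit1 held 38.6% of its molecules, and the same share of cells held 83.4% of Rsad2 and 6.63% of Ifi203. The quotient of Ifit1 was 0.578 in saline, 0.553 at 4 h and 0.558 at 8 h, so the concentration was present in the saline pool. Slfn5, a nuclear Schlafen gene, had 2423 molecules in saline, 2777 at 4 h and 2568 at 8 h, and its quotient was 0.752, 0.741 and 0.748.

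The 9 concentrated members summed to 807 CPM in saline, 903 CPM at 4 h and 852 CPM at 8 h. Most of this sum came from Ifi27l2a, Epsti1 and Slfn5, at 272, 236 and 178 CPM in saline. These genes were found in 38.2%, 36.8% and 29.0% of T cells, so the sum mostly describes broadly found genes. Ifit1 and Rsad2 gave 48.7 and 6.01 CPM of it in saline. The summed ratio of the 9 members was 1.12 at 4 h (1.09 to 1.15) and 1.06 at 8 h (1.03 to 1.08). For the 36 members between it was 1.06 (1.04 to 1.07) and 1.02 (1.01 to 1.04). The median log2 ratio at 4 h was 0.31 for the concentrated group and 0.13 for those between, and all 9 concentrated members were above 1 against 32 of 36. The quotient was computed on the same cells, so this is a description of where the molecules lay.

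**Figure D2:**
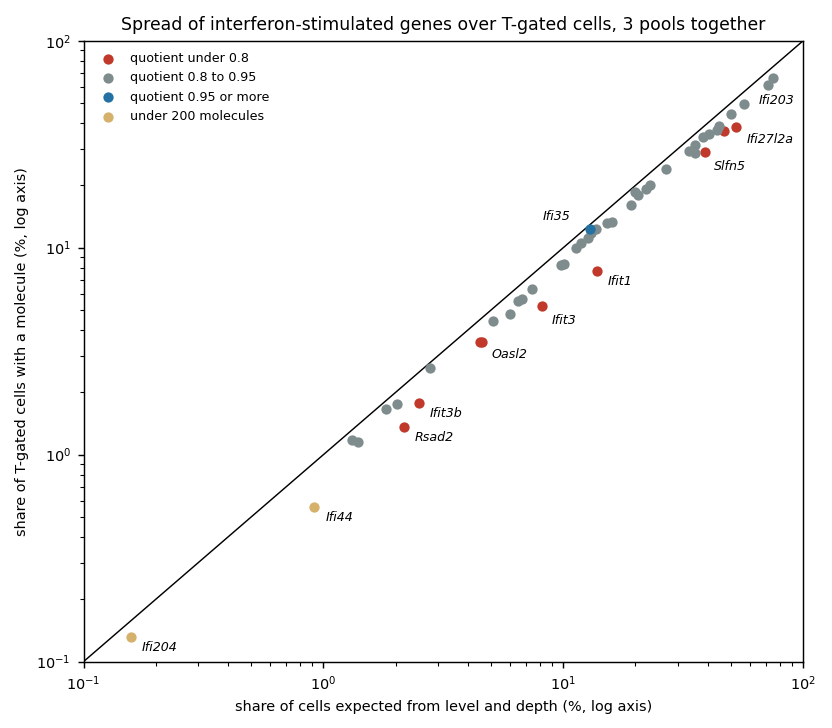
Observed share of T cells with a molecule against the share expected if molecules fell on cells in proportion to depth, 1 point per member, both in percent on log axes. Points under the diagonal are packed into fewer cells than expected: Ifit1 was seen in 7.75% of cells against 13.8% expected, while Ifi35 lay almost on the line.

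Cells with at least 1 molecule of Ifit1 or Ifit3 were then taken as a marker of the interferon response. They were 10.3% of T cells in saline (511 of 4983, exact interval 9.43 to 11.1%), 12.0% at 4 h (611 of 5098, 11.1 to 12.9%) and 11.0% at 8 h (560 of 5091, 10.2 to 11.9%). The share at 4 h was 1.17 times that in saline (1.04 to 1.32). At 8 h the share was 1.07 times that in saline (0.95 to 1.21), an interval that includes 1. The 2 marker genes were themselves past 1.2-fold at 4 h, at 1.30 for Ifit1 and 1.23 for Ifit3. A higher share at 4 h is therefore no separate check of the shift in the members. Thinned to 1000 molecules per cell, which kept 4966, 5076 and 5060 cells, the shares were 5.28%, 6.21% and 5.65%, and the 4 h ratio of 1.18 had an interval of 0.995 to 1.39. With at least 2 molecules of both genes together the shares were 3.99%, 4.59% and 4.14%, and the 4 h ratio of 1.15 had an interval of 0.947 to 1.40. Both intervals include 1, and 312 of the 511 positive cells in saline held 1 molecule. In B cells of the same pools, a lineage that can itself respond to interferon, 3 of 110, 4 of 141 and 2 of 138 cells were positive, that is 2.73%, 2.84% and 1.45%, at median depths of 2120.5, 2399 and 2050 molecules.

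The rest of the set was higher in these cells in every pool. Of the 44 other members compared, 25 were at least 2-fold higher in positive than in negative cells in each of the 3 pools, against 0.428% of 9121 genes. The median fold was 2.52 and the lowest, that of Epsti1, was 1.53. Rsad2 stood highest with 38.1 CPM in positive and 2.06 CPM in negative cells in saline, 55.0 and 3.36 CPM at 4 h, and 49.8 and 2.44 CPM at 8 h, a fold of 18.4 over all pools. Mx1 followed the same line with 22.7 against 1.73 CPM in saline, 28.1 against 2.54 CPM at 4 h and 26.4 against 2.77 CPM at 8 h. Isg15 had 84.8 against 12.9 CPM in saline, 110 against 13.0 CPM at 4 h and 84.2 against 13.5 CPM at 8 h. Positive cells were a little deeper, with median molecules of 2697 against 2531.5 in saline, 2704 against 2508 at 4 h and 2670 against 2512 at 8 h. Ifit3b was 17.4-fold higher over all pools, but its near identity with Ifit3 ties it to the rule that chose the cells.

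By role, 5 of 5 OAS genes, 5 of 6 other antiviral effectors, 4 of 5 sensors and 2 of 3 ISG15 genes were at least 2-fold higher in positive cells in each pool. The same held for 2 of 3 Schlafen genes, 1 of 3 transcription factors, 1 of 2 further IFIT genes, 2 of 5 PARP and ubiquitin ligase genes, 1 of 4 Ifi200 genes and 2 of 8 other members. The transcription factor Irf7 reached 3.26-fold, and Irf9 1.68-fold. Positive cells held 71.1% of Rsad2 molecules, 48.8% of Isg15 molecules and 17.0% of Epsti1 molecules.

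**Figure D3:**
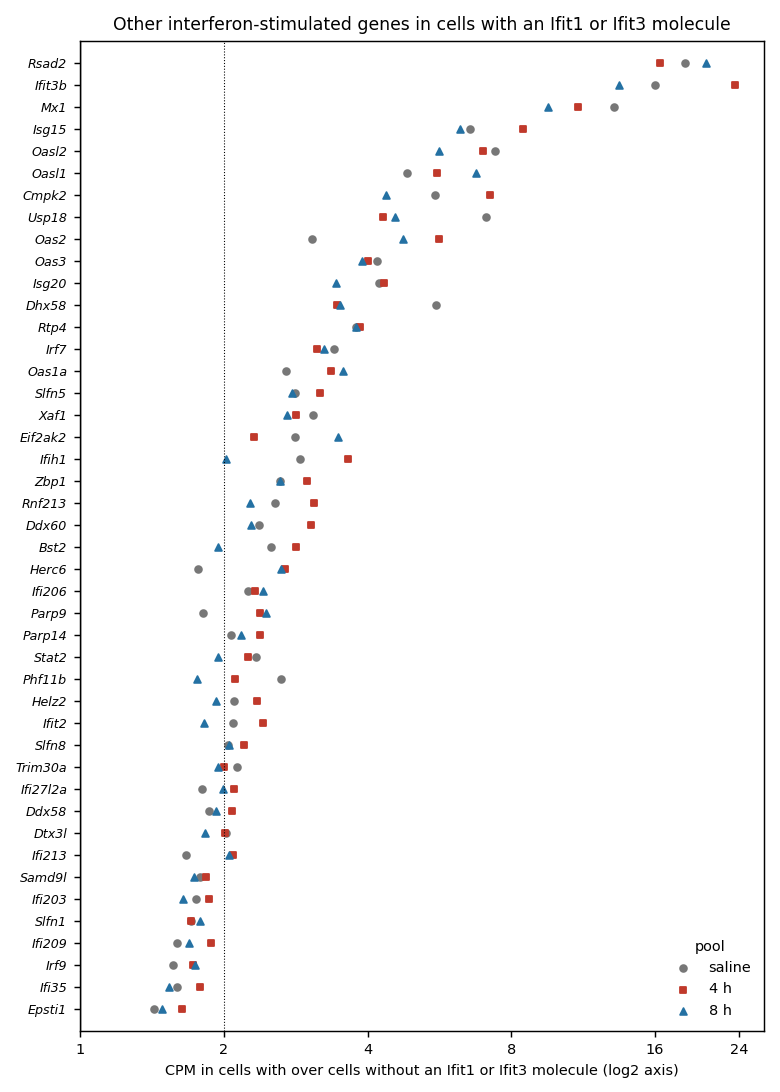
Fold of each of 44 members in cells with an Ifit1 or Ifit3 molecule over cells without one, shown for each of the 3 pools on a log axis. The 3 points of most genes lie close together: Rsad2 and Mx1 are far to the right and Epsti1 (1.53-fold over all pools) is furthest to the left.

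Within the positive cells, the level of the other members was also higher at 4 h. The median log2 ratio at 4 h over saline was 0.20 in positive cells, with 39 of 44 members above 1, while the median over all genes in those cells was 0.0051 and 50.7% of genes were above 1. Past 1.2-fold higher were 16 members and lower 1, against 19.5% and 17.8% of genes. In negative cells the median was 0.06, with 30 of 44 above 1, against 0.02 and 55.8% for all genes, and 4 members were past 1.2-fold higher and 1 lower, against 5.98% and 2.7% of genes. At 8 h the medians were 0.03 in positive and 0.09 in negative cells, with 27 and 31 of 44 above 1. Past 1.2-fold at 8 h were 8 members higher and 3 lower in positive cells, against 18.6% and 19.3% of genes, and 6 higher and 0 lower in negative cells, against 4.47% and 3.52%. Whether positive and negative cells differed in this was not tested, since each pool is 1 sample. Among the 7 concentrated members other than Ifit1 and Ifit3, cells thinned to 1000 molecules carried at least 2 distinct genes in 30.5% of positive cells in saline, 35.9% at 4 h and 30.1% at 8 h, against 8.42%, 9.58% and 9.17% of negative cells. These 7 genes include Ifit3b, which its near identity with Ifit3 ties to the rule that chose the cells. Ifi27l2a, Epsti1 and Slfn5, also among the 7, were broadly found. All 7 were grouped by their spread over these same cells, so the shares are a description. Usp18 was a member that was higher outside the positive cells too, at 1.80 (1.42 to 2.3) times saline in negative cells at 4 h.

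T cell subsets, defined by gates on Cd4, Cd8a or Cd8b1, Foxp3, S100a4 and Ccl5 molecules, held positive cells in every pool. In the large CD8 group without Ccl5 the share was 11.7% in saline, 13.9% at 4 h and 12.0% at 8 h, and in CD8 cells with Ccl5 13.6%, 14.9% and 9.93%. In the large CD4 group without Foxp3 or S100a4 it was 8.78%, 10.7% and 10.4%. Both large groups were highest at 4 h, with intervals of the ratio to saline that included 1, at 0.984 to 1.44 for CD8 and 0.972 to 1.52 for CD4. In Foxp3+ cells, which are regulatory T cells, the share was 6.35%, 9.72% and 13.7%, but these are 8, 14 and 21 cells, and the ratio of 2.16 at 8 h over saline had an interval of 0.920 to 5.64. The CD8 Ccl5+ cells were deeper, at a median of 3479 molecules per cell at 8 h against 2669 in CD8 Ccl5- cells, and after thinning their shares of 5.6%, 7.06% and 3.69% lay around the 5.68%, 6.17% and 6.58% of CD8 Ccl5- cells.

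**Figure D4:**
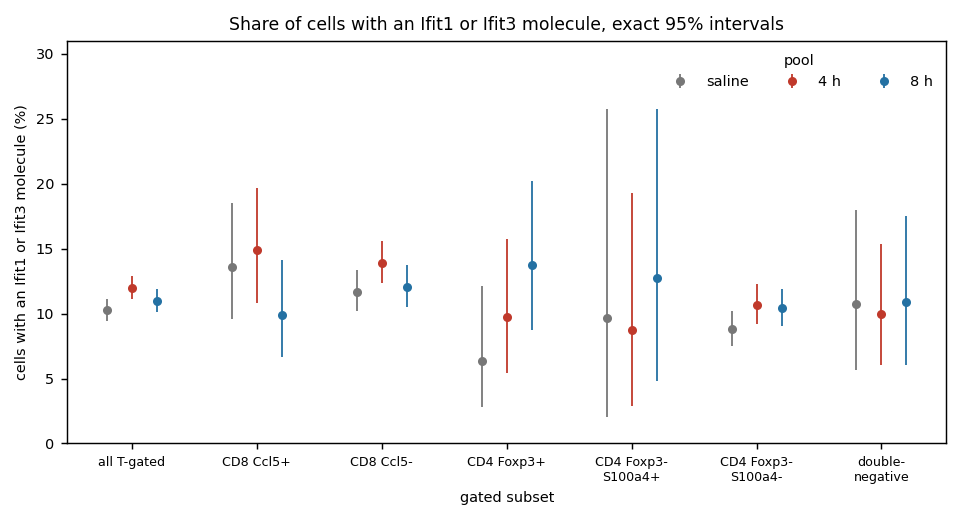
Share of cells with an Ifit1 or Ifit3 molecule by T cell subset and pool, in percent, with exact 95% binomial intervals that cover counting error only. The intervals of the small subsets are wide, and that of Foxp3+ cells at 8 h, around 13.7%, overlaps the one in saline, around 6.35%.

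At 4 h the median of the members lay above saline in the 2 large subsets, in double-negative cells and in T cells outside the gates. Of 46 members 41 were above saline in CD8 Ccl5- cells, with a median log2 ratio of 0.13, and 35 were in CD4 Foxp3- S100a4- cells, with a median of 0.16. In double-negative cells 33 of 43 were above saline, with a median of 0.24, and in cells outside the gates 35 of 46, with a median of 0.17. In CD8 Ccl5+ cells 23 of 46 were above saline and in Foxp3+ cells 17 of 42, with medians of -0.00045 and -0.04. Over all genes the medians at 4 h lay between -0.01 in Foxp3+ cells and 0.03 in CD4 Foxp3- S100a4+ cells. In the last of these 20 of 40 members were above saline, with a median of -0.0071. At 8 h cells outside the gates had 36 of 46 members above saline, with a median of 0.17, and double-negative cells 31 of 43, with a median of 0.23, while the medians of the 2 large subsets were 0.05 in CD8 Ccl5- and 0.02 in CD4 Foxp3- S100a4- cells. The difference between subsets in this was not tested. In double-negative cells with Trdc, Klrb1c or Zbtb16, a mixture of gamma delta and innate-like T cells, the concentrated members summed to 640 CPM in saline (195 molecules in 112 cells), 1025 CPM at 4 h (475 in 180) and 885 CPM at 8 h (299 in 129). The ratios of 1.60 (1.35 to 1.9) and 1.38 (1.15 to 1.66) rest in part on few cells, since the highest cell alone held 12, 68 and 33 molecules. Without the 5 highest cells of each pool the levels were 517, 755 and 726 CPM.

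Between subsets, the pools can serve as replicates, although they differ in treatment, and counts were summed per pool and subset and fitted with pool as a block. In CD8 Ccl5- against CD4 Foxp3- S100a4- cells, edgeR's quasi-likelihood test with Benjamini-Hochberg adjustment over 9123 genes called 16 members higher and 7 lower, against 12.2% and 12.3% of all genes. The members' median log2 ratio was 0.07. Genes named in the subset comparisons were chosen after their values were seen. Epsti1 was the most different, with 368, 397 and 353 CPM in CD8 cells at saline, 4 h and 8 h, against 102, 114 and 90.4 CPM in CD4 cells. Its log2 ratio was 1.93 (SE 0.06, edgeR adjusted p = 3.1e-38). Among the antiviral effectors Mx1 was 1.46 log2 units higher in CD8 cells (SE 0.37, edgeR adjusted p = 1.6e-03), and Oas3 was 0.94 higher (SE 0.14, edgeR adjusted p = 1.8e-07).

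Among the IFIT genes 1 was lower and 1 higher in CD8 Ccl5- cells. Ifit2 had 33.8, 35.7 and 30.7 CPM in CD8 Ccl5- cells against 61.7, 58.7 and 65.0 CPM in CD4 Foxp3- S100a4- cells, a log2 ratio of -0.83 (SE 0.11, edgeR adjusted p = 1.8e-09). Ifit3 ran the other way, with 34.0, 36.7 and 41.0 CPM in CD8 cells against 23.2, 29.7 and 21.5 CPM in CD4 cells, a log2 ratio of 0.65 (SE 0.13, edgeR adjusted p = 4.7e-05). Ifit1 gave 0.02 (SE 0.11, edgeR adjusted p = 0.94), and Ifit3b, the near-copy of Ifit3, -0.09 (SE 0.27, edgeR adjusted p = 0.87), which does not show equal levels for either. Slfn5 at -0.79 (SE 0.07, edgeR adjusted p = 3.6e-15), Ifi27l2a at -0.54 (SE 0.06, edgeR adjusted p = 3.4e-12) and Slfn1 at -0.45 (SE 0.05, edgeR adjusted p = 5.7e-12) were also lower in the CD8 cells. Oas2 and Ifih1 were lower in CD8 by 1.16 and 0.79 log2 units, the opposite of Oas3. Whether members of one family differed from each other in this was not tested.

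Some members were higher in regulatory T cells. In Foxp3+ against CD4 Foxp3- S100a4- cells edgeR called 12 members higher and 3 lower, against 10.2% and 7.76% of genes, and the members' median log2 ratio was 0.26, against -0.01 over all genes. Ifi27l2a had 741, 692 and 748 CPM in Foxp3+ cells at saline, 4 h and 8 h, against 304, 323 and 342 CPM in the Foxp3- cells, a log2 ratio of 1.13 (SE 0.08, edgeR adjusted p = 6.6e-20). Eif2ak2 was higher by 0.99 (SE 0.21, edgeR adjusted p = 1.4e-04) and Isg20 by 0.92 (SE 0.20, edgeR adjusted p = 3.7e-04). Slfn1 was lower, with 403, 342 and 316 CPM in Foxp3+ cells against 617, 643 and 608 CPM, a log2 ratio of -0.87 (SE 0.08, edgeR adjusted p = 1.7e-13). The count of 12 was 6 when the 8 h pool was left out, a refit with fewer counts for every gene. The share of all genes called in it is not given.

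CD4 cells with S100a4, a gene of memory and effector cells, also had more Ifi27l2a and less Slfn1. In CD4 Foxp3- S100a4+ against S100a4- cells edgeR called 8 members higher and 4 lower, against 9.2% and 8.23% of genes. Ifi27l2a reached 1114, 831 and 937 CPM in S100a4+ cells, a log2 ratio of 1.49 (SE 0.10, edgeR adjusted p = 2.2e-20), Phf11b was higher by 1.19 (SE 0.17, edgeR adjusted p = 4.9e-08) and Epsti1 by 1.05 (SE 0.17, edgeR adjusted p = 1.5e-06). Only 31, 57 and 47 cells made up this subset. With gates on 2 molecules 3 members were called higher, and without the 8 h pool 5 were, both without a share of all genes. In CD8 Ccl5+ against CD8 Ccl5- cells 2 members were called higher and 7 lower by edgeR, against 7.23% and 4.84% of genes. Epsti1 was higher by 0.41 (SE 0.06, edgeR adjusted p = 2.3e-07), and Ifi213 lower at -0.61 (SE 0.08, edgeR adjusted p = 1.7e-08), Slfn1 at -0.55 (SE 0.07, edgeR adjusted p = 2.9e-09) and Ifi27l2a at -0.42 (SE 0.09, edgeR adjusted p = 3.1e-04). The count of 2 was 1 without the saline or the 8 h pool, again without a share of all genes.

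**Figure D5:**
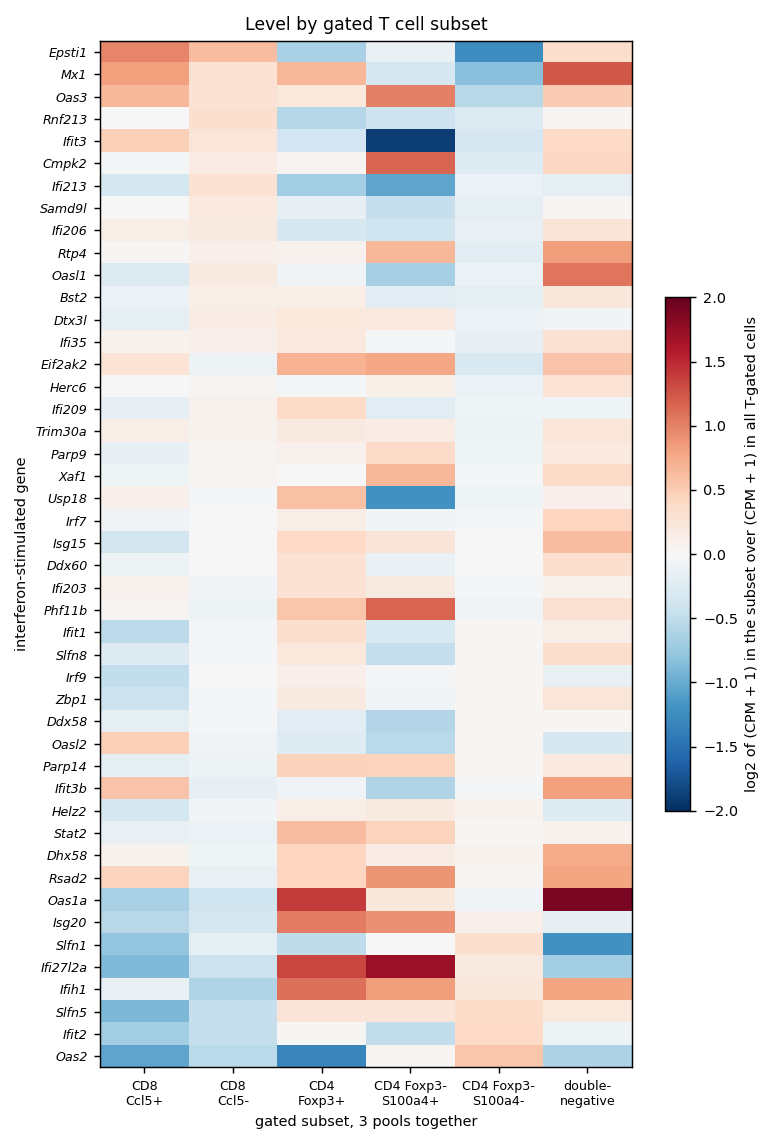
Level of each member in each T cell subset over its level in all T cells, as the log2 of (CPM + 1) over (CPM + 1), summed over the 3 pools. Ifi27l2a is above average in Foxp3+ and S100a4+ CD4 cells, Epsti1 in CD8 cells, and Slfn1 below average in CD8 Ccl5+ cells.

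The rest of the pathway was followed in lists of related genes. Ifnar1, the receptor chain that TYK2 binds, had 990 molecules in saline, 1201 at 4 h and 1148 at 8 h, with ratios of 1.19 (1.09 to 1.29) and 1.14 (1.04 to 1.24), whereas Ifnar2 had 724, 800 and 816 molecules and ratios of 1.08 (0.975 to 1.2) and 1.10 (0.998 to 1.22). Both receptor chains stayed within 1.2-fold of saline. Irf1, a transcription factor induced by both interferon types, had ratios of 1.10 (1.05 to 1.16) and 1.01 (0.961 to 1.06). In the other lists the counts past 1.2-fold were 0 of 10 nucleic acid sensors and adaptors and 0 of 9 type II receptor and target genes at either time, and of 5 other IRF genes 0 at 4 h and 1 at 8 h, Irf4, with 94, 112 and 121 molecules and a ratio of 1.26 (0.956 to 1.67). The median log2 ratios of these lists at 4 h were 0.14 for the other IRF genes, 0.13 for sensors and adaptors and 0.095 for type II genes, against 0.14 for the members and 0.01 for all genes.

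Of 7 brake genes 1 was past 1.2-fold higher at 4 h and 1 lower at 8 h, and 5 passed at neither time. Socs3, whose product inhibits JAK kinases, had 636 molecules in saline, 815 at 4 h and 626 at 8 h, and was past 1.2-fold at 4 h, at 1.25 (1.13 to 1.39). Socs1, the other SOCS inhibitor of this pathway, had 635, 633 and 512 molecules and was lower at 8 h, at 0.790 (0.702 to 0.889). Of 21 interferon genes 5 had a row and 0 passed the minimum. Type I interferon genes gave at most 2 molecules of any gene in any pool. Ifng, the T cell interferon, had 24, 55 and 49 molecules in 18, 36 and 39 cells. Its share of positive cells was 1.95 times saline at 4 h (1.08 to 3.66) and 2.12 times at 8 h (1.18 to 3.94).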

How the data were processed

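Single T cells of mouse spleen were profiled by BD Rhapsody whole-transcriptome sequencing in 3 tagged pools of 3 mice, in 1 capture. The deposited counts are molecules per cell and gene after the error correction by recursive substitution (RSEC) of the BD WTA Multiplex Rhapsody pipeline 1.9.1 on GRCm38 with GENCODE M19, per the file headers; for the aligner, the name was not given in the sources used here. Sample tags 8, 10 and 9 mark saline, 4 h and 8 h, as the authors described. Of 17299 putative cells with 49040075 molecules, 1063 tag multiplets, 60 undetermined cells and 2 with another tag were left out; no doublet caller was run and free RNA was not corrected. Cells with at least 200 genes and under 25% mitochondrial molecules were kept (16123). T cells needed at least 1 molecule of Cd3d, Cd3e or Cd3g and fewer than 2 of a B cell and of a myeloid set (15172), with 13646271, 13970133 and 13920718 molecules at saline, 4 h and 8 h.

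Genes with at least 200 molecules over the 3 pools were compared (9123) by the ratio of molecules per 1000000, with exact intervals for counting error, and counted past 1.2-fold; with 1 pool per treatment no p-value was computed between treatments. Subsets were compared with edgeR 4.0.16 (R 4.3.3), a quasi-likelihood test on counts summed per pool and subset with pool as a block and Benjamini-Hochberg adjustment at 0.05. This test was added after the data were seen and was tested on simulated data. Pools share 1 capture and differ in treatment. With pool as a block, the p-values of this test measure how far differences between subsets varied from pool to pool, estimated over all subsets. That variation may be technical. Gene coordinates came from GENCODE M21 on GRCm38. Values in each pool are given for members past 1.2-fold whose interval excludes 1, the 8 members with most molecules and the 6 with the lowest quotient of observed to expected share. The list of receptor and JAK-STAT genes is not reported here as a whole. The members, lists and gates were chosen with earlier results of these data known. Alternatives were other filters, gates, folds and minimums, thinning to 1000 molecules (seed 1), another marker for responding cells, fits without the block and leaving out each pool.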

Additional observations from a re-analysis of the deposited data

How the results depend on the processing

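The direction of the medians held under every alternative run: the median log2 ratio of the members stayed between 0.054 and 0.16 at 4 h and between 0.062 and 0.091 at 8 h, and of the values of main comparisons 112 stayed close and 16 moved. Over all kept cells 8 members were past 1.2-fold at 4 h, against 6.3% of genes, and the cause was not tested. Without cells holding an Ifit1 or Ifit3 molecule, which removes cells by the level of members and leaves 38 compared, 2 members were past 1.2-fold at 4 h (median log2 ratio 0.054), against 5.52% of genes, and 4 at 8 h, against 4.07%, and the 4 h ratio of Ifit3b turned to 0.916. At 1.5-fold the counts were 2 at 4 h, against 0.614% of genes, and 0 at 8 h, against 0.285%. Requiring also an interval that excludes 1 left 3 at 8 h, against 2.17% of genes. With Rsad2, Usp18 or Ifit3b as the marker, the share of positive cells was 1.51 times saline at 4 h and 1.30 times at 8 h. The 4 h ratios of these genes, 1.66, 1.54 and 1.34, were among the highest of the members. A higher share at 4 h therefore follows from the choice of marker and is no separate check. Thinning, which leaves fewer molecules, left 1 member with a quotient under 0.8. Taking cells with at least 2 molecules of Ifit1 and Ifit3 together, 42 of 44 members were at least 2-fold higher in every pool, against 0.91% of genes.

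In edgeR, leaving out 1 pool gave 6 to 11 members higher in Foxp3+ cells (6 without the 8 h pool), 5 to 7 in S100a4+ cells (5 without the 8 h pool) and 1 to 2 in CD8 Ccl5+ cells, and gates on 2 molecules gave 3 in S100a4+ cells. Without the replicate block, which pairs subsets of the same pool, the members called higher and lower were 15 and 7 in CD8 Ccl5- cells, 12 and 3 in Foxp3+ cells, 8 and 4 in S100a4+ cells and 2 and 7 in CD8 Ccl5+ cells. The share of all genes called is not given for these refits, here or above, so their counts stand without a background. Leaving out a pool also leaves fewer counts for every gene. Counting error limits most the members with few molecules, such as Mx1 and Rsad2.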

Other observations

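Outside the 49 genes, 14 others were at least 2-fold higher in cells with an Ifit1 or Ifit3 molecule in each of the 3 pools. They were Parp12, Gbp6, Gbp10, Iigp1, Tlr7, Phf11c, Ifit1bl1, Lgals3bp, Trim30c, Zfp365, Gm12185, Irgm1, Pml and Trim30d, chosen by that rule after the data were seen. Parp12, Pml and the GTPase genes Gbp6, Gbp10, Iigp1 and Irgm1 are known interferon-inducible genes, and Tlr7 encodes a sensor of RNA. Ifit1bl1, a relative of Ifit1, had 254 CPM in positive cells against 91.4 CPM in negative cells in saline, 233 against 86.2 CPM at 4 h and 205 against 89.9 CPM at 8 h. Its likeness to Ifit1 means that reads may be shared between them. Ifi44, under the minimum for comparison, had 30 molecules in saline, 55 at 4 h and 55 at 8 h, and Ifi204 had 9, 11 and 4.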
